A study of Mus musculus with 4 samples.

Results

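The c-Jun N-terminal kinase (JNK) cascade was examined through 10 of the 22609 genes listed in the count files: the 3 JNK genes (Mapk8, Mapk9 and Mapk10), the kinases that activate them (Map2k4 and Map2k7), kinases one step further upstream (Map3k5 and Map3k11) and the JIP scaffold genes (Mapk8ip1, Mapk8ip2 and Mapk8ip3). The genes were chosen by their symbols, all 10 were found, and all 10 passed the filter on low counts. The tissue was the hippocampus of C57BL/6 mice. FLOXED animals (2 libraries) were compared with PELP1 FBKO animals (2 libraries), in which the gene of PELP1, a protein that works with estrogen receptors in transcription, was knocked out in the forebrain. The sources used here do not give the Cre driver, the deleted part of the gene, the animals' age, or whether animals were pooled. All 4 libraries came from ovariectomized mice with estradiol (E2) mini pumps that went through global cerebral ischemia (GCI, a temporary stop of blood flow to the brain) and 24 h of reperfusion. No group lacked ischemia or estradiol, so the values show the genotype difference within that one state and no response to either.

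JNKs are stress-activated members of the mitogen-activated protein kinase (MAPK) family. A MAP3K phosphorylates a MAP2K, the MAP2K phosphorylates the threonine and the tyrosine of a Thr-Pro-Tyr motif in the JNK activation loop, and active JNK phosphorylates c-Jun and proteins of the BCL2 family. JNK3, encoded by Mapk10, is largely restricted to the nervous system, and JNK signaling is a known contributor to neuronal death after ischemia. The pathway is switched by phosphorylation, which read counts do not measure: the data give transcript levels only.

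The phosphorylated motif shows how alike, and how distinct at the nucleotide level, the 3 JNK genes are. The lines below give 63 coding bases around the single in-frame Thr-Pro-Tyr site of each gene, 5′ to 3′ from the GENCODE vM21 transcripts, with its 9 bases in capitals.
Mapk8: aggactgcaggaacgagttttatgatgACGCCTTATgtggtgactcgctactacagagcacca
Mapk9: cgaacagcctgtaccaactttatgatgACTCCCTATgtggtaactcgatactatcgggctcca
Mapk10: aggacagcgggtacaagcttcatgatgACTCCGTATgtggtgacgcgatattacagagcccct
Over these 63 bases Mapk8 and Mapk9 differed at 17, Mapk8 and Mapk10 at 13, and Mapk9 and Mapk10 at 16. The longest identical run between the coding sequences of any pair of JNK genes was 23 bases, such as ggcatgggctacaaggagaacgt in Mapk8 and Mapk10, shorter than the 50-base reads. No 50-base stretch of the longest transcript of Mapk8, Mapk9, Mapk10, Map2k4, Map3k5 or Mapk8ip2 occurred in a transcript of another gene. That share was 37.4% for Map2k7, with Gm49320, and 36.7% for Mapk8ip3, with Eme2, Mrps34 and Nme3. It was 2.73% for Map3k11 and 1.61% for Mapk8ip1. The levels of Map2k7 and Mapk8ip3 are the less certain ones, since the annotation used for counting was not given.

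Because PELP1 is a co-regulator of estrogen receptors, the 250 bases before the annotated starts were read for estrogen response elements. The RefSeq table (GRCm38.p6) held 13 such windows for 9 members and none for Mapk8ip1. Shown are Mapk9, a JNK gene with half-sites, and Mapk8ip2 and Mapk8ip3, the scaffold genes with an entry, 5′ to 3′ on the gene's strand with every motif match in capitals. Their positions are chr11:49846501-49846750 on the plus strand, chr15:89453661-89453910 on the plus strand and chr17:24936978-24937227 on the minus strand.
Mapk9: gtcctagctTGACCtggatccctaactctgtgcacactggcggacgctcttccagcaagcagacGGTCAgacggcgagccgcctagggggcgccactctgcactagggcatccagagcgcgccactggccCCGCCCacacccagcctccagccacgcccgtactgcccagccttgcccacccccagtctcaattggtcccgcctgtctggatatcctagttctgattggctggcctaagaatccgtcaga
Mapk8ip2: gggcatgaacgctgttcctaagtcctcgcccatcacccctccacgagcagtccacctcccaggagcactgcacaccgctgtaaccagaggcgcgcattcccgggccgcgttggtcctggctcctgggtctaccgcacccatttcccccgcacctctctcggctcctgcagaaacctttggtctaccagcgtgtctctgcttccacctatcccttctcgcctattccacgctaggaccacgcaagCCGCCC
Mapk8ip3: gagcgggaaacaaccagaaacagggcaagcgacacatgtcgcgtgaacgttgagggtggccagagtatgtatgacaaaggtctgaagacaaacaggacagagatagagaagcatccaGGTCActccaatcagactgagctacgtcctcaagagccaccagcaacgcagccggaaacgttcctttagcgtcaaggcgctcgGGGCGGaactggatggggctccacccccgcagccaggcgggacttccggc
Motifs were matched exactly on both strands. The full palindromic estrogen response element, with inverted half-sites around 3 free bases, was in 0 of the 13 windows and in 0.0639% of all 32851 windows of this length. The half-site GGTCA, which the full element contains, was in 8 of 13 against 35.2% of all windows, the GC box GGGCGG in 5 against 32.7%, and the TATA box TATAAA in 2 against 12.4%. The AP-1 site TGANTCA, which JUN and FOS proteins bind, was in 1 against 6.75%. The cAMP response element TGACGTCA was in 1, a Mapk10 window, against 1.55%. These are letter matches in short windows and not binding data. For Mapk8, Mapk10 and Map2k4 the half-site was only in the window before a further annotated start inside the gene. The windows with a TATA box, of Mapk10 and Map2k7, also lay before such inner starts. The only Map3k11 window, which held 2 half-sites, likewise lay inside the annotated span of its gene.

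Reads assigned to genes came to between 17524594 and 22447658 a library, and the 14978 genes with enough reads were tested. Pelp1 itself was at 26.7 and 26.3 CPM (read counts scaled to library size with TMM factors, as all CPM below) in FLOXED against 18.0 and 17.3 CPM in PELP1 FBKO. That was a log2 fold change, always PELP1 FBKO minus FLOXED here, of -0.59 (SE 0.149, edgeR quasi-likelihood adjusted p = 0.13). Reads of replicate libraries differed by more than counting noise (chi-square per degree of freedom 23.3 and 17.4). Neuron markers were present in every library, with 10 of 10 tested, a summed level between 9079 and 10520 CPM and 0 at no reads. Markers of astrocytes (3820 and 4746 CPM summed over 10 genes in FLOXED, 6425 and 5981 in PELP1 FBKO) and of oligodendrocytes (3084 and 3952, then 6153 and 6595 over 10) stood higher in both PELP1 FBKO libraries, and those of CA1 pyramidal cells lower (953 and 1056, then 783 and 693 over 8). Endothelial markers summed to 118 and 171 CPM in FLOXED and 214 and 203 CPM in PELP1 FBKO, microglia markers to 730 and 675, then 840 and 1142, and choroid plexus markers to 353 and 98.2, then 51.9 and 63.4. The single gene Ttr carried the last difference, with 324 and 67.5 CPM in FLOXED and 21.4 and 33.9 CPM in PELP1 FBKO. In bulk tissue, fewer cells of a type and less RNA per cell cannot be told apart.

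None of the 10 JNK pathway genes passed the test between genotypes. The count was 0 of 10 higher and 0 of 10 lower at an adjusted p of 0.05 (edgeR quasi-likelihood, 0% of all tested genes in either direction), 0 of 10 at an unadjusted p under 0.05 (15.6% of all tested genes), 0 of 10 by DESeq2 (3.08%) and 0 of 10 by limma-voom (0%). Log2 fold changes of the members lay between -0.18 and 0.24, with 3 positive and 7 negative and a median of -0.04. Of the 7438 tested genes at or above the mean level of the lowest member, 3073 were positive and 4365 negative. Their median was also -0.04. Without sign, the median size was 0.06 for the members, 0.20 over all tested genes and 0.15 over those 7438. None of the 10 was past 1.5-fold, as were 13.2% of all tested genes but only 304 of those 7438. For 9 of the 10 both ends of the 95% interval of the fold change also lay within 1.5-fold, and for Map3k11 the upper end was 1.51-fold. With 2 libraries a genotype this test also called none of the 1981 genes past 1.5-fold, and a p above the threshold does not show equal levels.

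**Figure D1:**
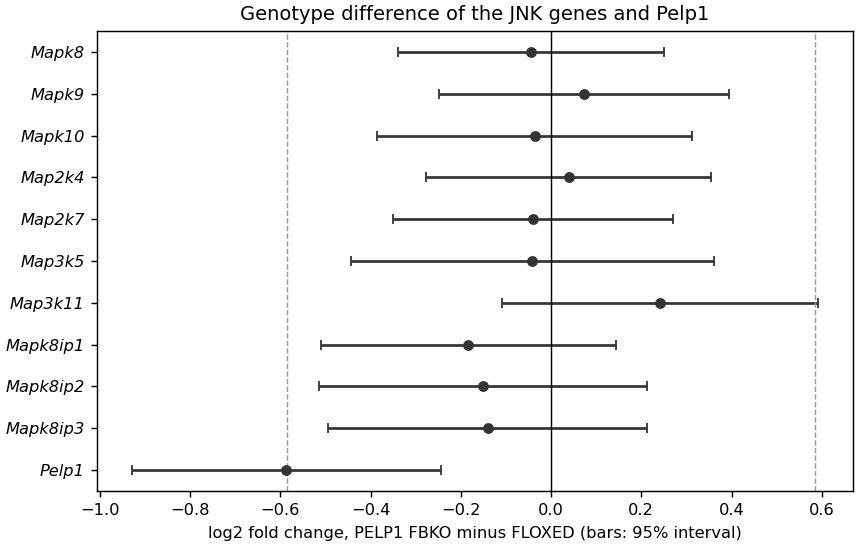
Log2 fold change (PELP1 FBKO minus FLOXED, edgeR) of the 10 JNK pathway genes and of Pelp1, with 95% intervals as bars, from 2 libraries a genotype. Dashed lines mark 1.5-fold. All 10 members' intervals include 0, and the Pelp1 interval runs from -0.93 to -0.24.

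Per transcript length, the scaffold gene Mapk8ip1 had the most reads of the 10 and the MAP3K genes the fewest. In RPKM, here CPM divided by the kilobases of the longest coding transcript, FLOXED means were 135.1 ± 10.3 (SD, n = 2) for Mapk8ip1, 76.6 ± 2.51 for Mapk8ip3, 72.9 ± 5.41 for Map2k4 and 63.1 ± 4.86 for Mapk10. Mapk8ip2 followed at 56.3 ± 0.547, Mapk9 at 42.0 ± 3.13, Map2k7 at 26.7 ± 2.01 and Mapk8 at 20.8 ± 1.60. Map3k5, at 7.57 ± 1.60, and Map3k11, at 6.09 ± 0.308, closed the order. Neighbors in this order whose FLOXED means lay closer than their summed SDs were Mapk8ip3 and Map2k4, Map2k4 and Mapk10, and Map3k5 and Map3k11. Mapk8ip3 and Map2k4 stood in the opposite order in PELP1 FBKO (69.5 ± 8.43 and 74.9 ± 3.42 RPKM). With the joined length of all annotated exons in place of the longest coding transcript, Mapk8ip3 dropped behind Mapk10 in FLOXED (38.3 RPKM, beside 40.8 for Mapk10), while Mapk8ip1 stayed first and the MAP3K genes last. Averaged over the 4 libraries, Mapk8ip1 was above 97.3% of tested genes, Mapk10 above 92.8% and Map3k11 above 46.8%.

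The JNK genes were at nearly the same level in both genotypes. Mapk10, the gene of the neuronal JNK3, had 430 and 479 CPM in FLOXED against 475 and 411 CPM in PELP1 FBKO. Its highest library was FLOXED 2 and its lowest PELP1 FBKO 2, so the genotypes overlapped. The log2 fold change was -0.04 (SE 0.152, edgeR adjusted p = 0.937), with a 95% interval of the fold from 0.765 to 1.24. Mapk9, which encodes JNK2, was at 186 and 207 CPM in FLOXED against 220 and 194 CPM in PELP1 FBKO, again overlapping. It differed by 0.07 on the log2 scale (SE 0.139, edgeR adjusted p = 0.845). Mapk8, the gene of the broadly expressed JNK1, stood at 113 and 126 CPM in FLOXED against 117 and 115 CPM in PELP1 FBKO. Both knockout values lay between the FLOXED ones, and the log2 fold change was -0.04 (SE 0.128, edgeR adjusted p = 0.904).

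**Figure D2:**
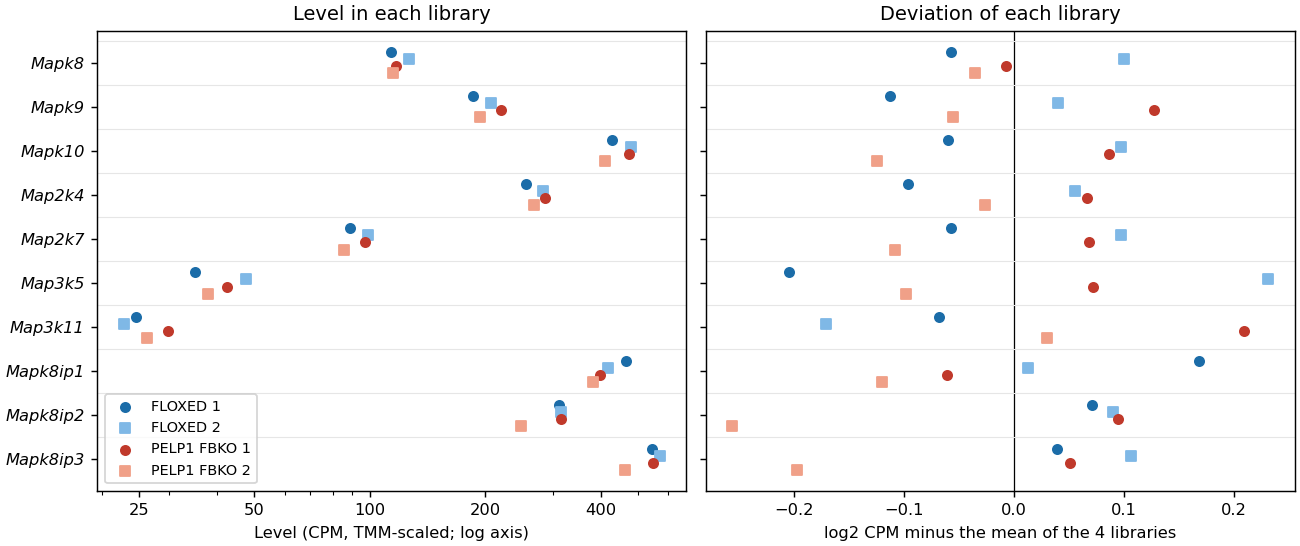
Left, level of each gene in each library in CPM on a log axis. Right, the same as log2 CPM minus that gene's mean over the 4 libraries. Points are single libraries, blue for FLOXED and red for PELP1 FBKO. The genotypes overlap for 8 of the 10 genes, and PELP1 FBKO 2 lies apart to the left for Mapk8ip2 and Mapk8ip3.

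Within the JNK family the proportions hardly moved from library to library, a comparison that does not depend on scaling between libraries. Per length, Mapk10 made up 50.1% and 50.1% of the JNK level in FLOXED and 49.5% and 48.2% in PELP1 FBKO. Mapk8 was the smallest part in all 4 libraries, between 15.3% and 16.9%. Mapk9 supplied the rest, 33.4% and 33.3% in FLOXED and 35.2% and 35.0% in PELP1 FBKO. As a share of JNK reads, Mapk9 had 25.5% in FLOXED 1 (95% Wilson interval 24.8 to 26.3), 25.5% in FLOXED 2 (24.8 to 26.1), 27.1% in PELP1 FBKO 1 (26.4 to 27.7) and 26.9% in PELP1 FBKO 2 (26.2 to 27.7). These intervals cover counting error only. Both knockout shares were above both FLOXED shares. An exact two-sided permutation test over the 4 libraries gave p = 0.333. That is the smallest p this design allows, so the test cannot decide whether the shares differ. The Mapk9 share is singled out after its values were seen, among 10 such shares, of which 4 did not overlap between genotypes: those of Mapk9, Mapk10, Map2k4 and Map2k7, the last pair being one ratio read from both sides. For comparison, the levels of 48.4% of all tested genes did not overlap between genotypes.

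**Figure D3:**
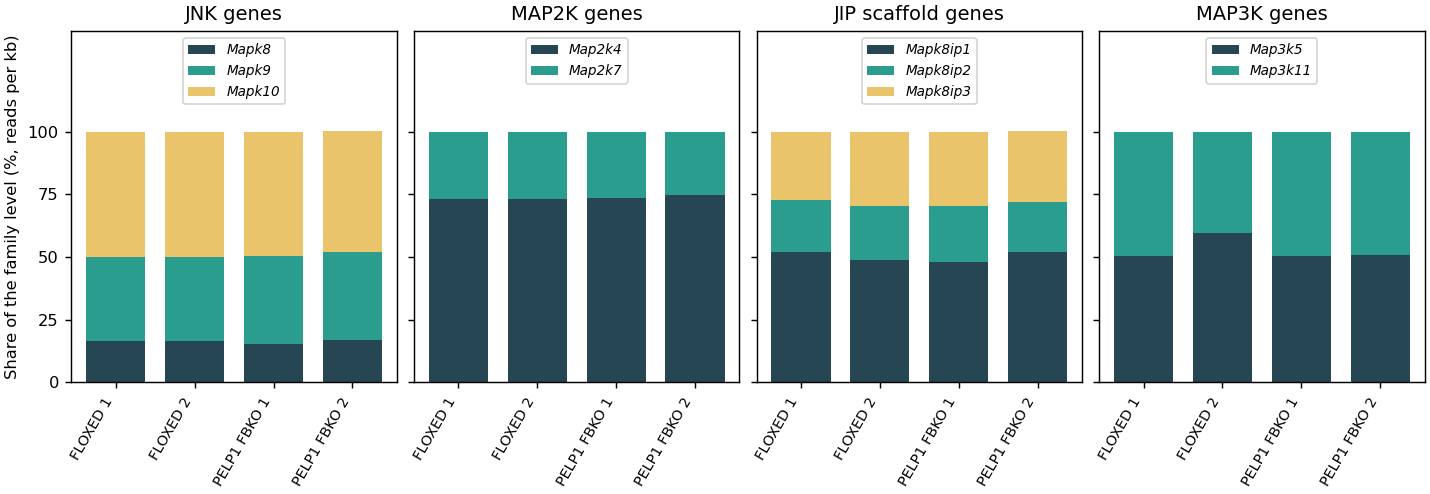
Share of each gene in the summed level of its family (percent of reads per kilobase of the longest coding transcript) in each of the 4 libraries. The JNK and MAP2K bars are nearly level across libraries, and Map3k5 makes up 59.7% of the MAP3K bar in FLOXED 2 beside 50.5% to 50.7% in the other libraries.

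The direct activators of JNK did not differ beyond the spread between replicates either. Map2k4 encodes MKK4, which also acts on p38 kinases, and it was at 255 and 284 CPM in FLOXED against 286 and 268 CPM in PELP1 FBKO. Both genotypes covered almost the same range, with a log2 fold change of 0.04 (SE 0.137, edgeR adjusted p = 0.923). Map2k7 encodes MKK7, the activator specific to JNK, and it stood at 89.0 and 99.0 CPM in FLOXED against 97.1 and 85.9 CPM in PELP1 FBKO. That was a difference of -0.04 (SE 0.134, edgeR adjusted p = 0.92), smaller than the gap of 0.177 on the log2 scale between the PELP1 FBKO libraries. Map2k4 took 73.2% and 73.2% of the summed MAP2K level per length in FLOXED and 73.7% and 74.8% in PELP1 FBKO.

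Of the upstream kinases, Map3k11 had the largest log2 fold change of the 10 members, and Map3k5 the widest spread within FLOXED. Map3k11 encodes the mixed lineage kinase MLK3. It was at 24.6 and 22.9 CPM in FLOXED against 29.8 and 26.3 CPM in PELP1 FBKO, from 431 to 657 reads. Both knockout libraries were above both FLOXED libraries, as for 25.4% of all tested genes, and the log2 fold change of 0.24 (SE 0.152) was not past the threshold (edgeR adjusted p = 0.484). Map3k5 encodes ASK1, a kinase held inactive by reduced thioredoxin and released under oxidative stress. It was at 35.1 and 47.4 CPM in FLOXED against 42.5 and 37.8 CPM in PELP1 FBKO, so that both knockout values fell inside the FLOXED range. The FLOXED libraries differed by 0.435 on the log2 scale, and the genotypes by -0.04 (SE 0.175, edgeR adjusted p = 0.937). Map3k5 made up 67.5% of the reads of this pair of genes in FLOXED 2 (95% Wilson interval 65.1 to 69.8) and between 58.8% and 58.9% in the other 3 libraries.

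The JIP scaffolds, which hold JNK, MAP2K and MAP3K proteins together and link them to kinesin transport, had 3 of the 4 log2 fold changes of largest size, all negative. Mapk8ip1 (JIP1) was at 466 and 418 CPM in FLOXED against 398 and 382 CPM in PELP1 FBKO. The genotypes did not overlap, with lower values in the knockout as for 23% of all tested genes, and the log2 fold change was -0.18 (SE 0.142, edgeR adjusted p = 0.57). Mapk8ip2 (JIP2) was at 311 and 315 CPM in FLOXED against 316 and 248 CPM in PELP1 FBKO. Of the 4 libraries PELP1 FBKO 2 alone was low, PELP1 FBKO 1 being the highest, and the log2 fold change was -0.15 (SE 0.157, edgeR adjusted p = 0.692). Mapk8ip3 (JIP3) had 544 and 570 CPM in FLOXED against 549 and 462 CPM in PELP1 FBKO. PELP1 FBKO 1 lay between the FLOXED libraries and PELP1 FBKO 2 below all others, for a log2 fold change of -0.14 (SE 0.153, edgeR adjusted p = 0.704). Without PELP1 FBKO 2 the values were 0.02 for Mapk8ip2 and -0.02 for Mapk8ip3, and without PELP1 FBKO 1 they were -0.36 and -0.29. Over the 10 members, the genotypes did not overlap for 2, or 20.0% against 48.4% of all tested genes. Those were Map3k11 on the higher and Mapk8ip1 on the lower side.

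For 8 of the 10 members the larger of the 2 gaps between replicate libraries exceeded the difference between genotypes. The share of all tested genes for which this holds was not counted, so the 8 cannot be read as particular to the members. Every one of the 10 was higher in PELP1 FBKO 1 than in PELP1 FBKO 2, which holds for 47.4% of all tested genes, and 8 of 10 were higher in FLOXED 2 than in FLOXED 1 (50%). PELP1 FBKO 2 was the lowest library for 5 of the 10 (20.6%). Summed over the members, the level was 2453 and 2568 CPM in FLOXED against 2529 and 2228 CPM in PELP1 FBKO. PELP1 FBKO 2 was also lowest in the sum of all tested genes at or above the lowest member's mean level. That sum was 933000 and 946300 CPM in FLOXED against 951700 and 903000 CPM in PELP1 FBKO. A sum over so many genes holds most of the reads and so largely follows the TMM factors. These were 1.001 and 0.9892 in FLOXED and 0.983 and 1.0274 in PELP1 FBKO. It therefore cannot decide whether the lower sum in PELP1 FBKO 2 was particular to the members. The share of single genes at that level was not counted. Several marker lists were also lower in PELP1 FBKO 2 than in PELP1 FBKO 1: the summed level was 9079 against 10520 CPM for neurons, 693 against 783 CPM for CA1 pyramidal cells, 5981 against 6425 CPM for astrocytes and 203 against 214 CPM for endothelium. Those of oligodendrocytes, microglia and choroid plexus were higher there. The neuron markers had summed levels of 9741 and 9784 CPM in FLOXED and a median log2 fold change of -0.01 between genotypes. The part of neuron or glial content in the members' values was not tested. These patterns within genotypes were noticed after the values were seen.

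**Figure D4:**
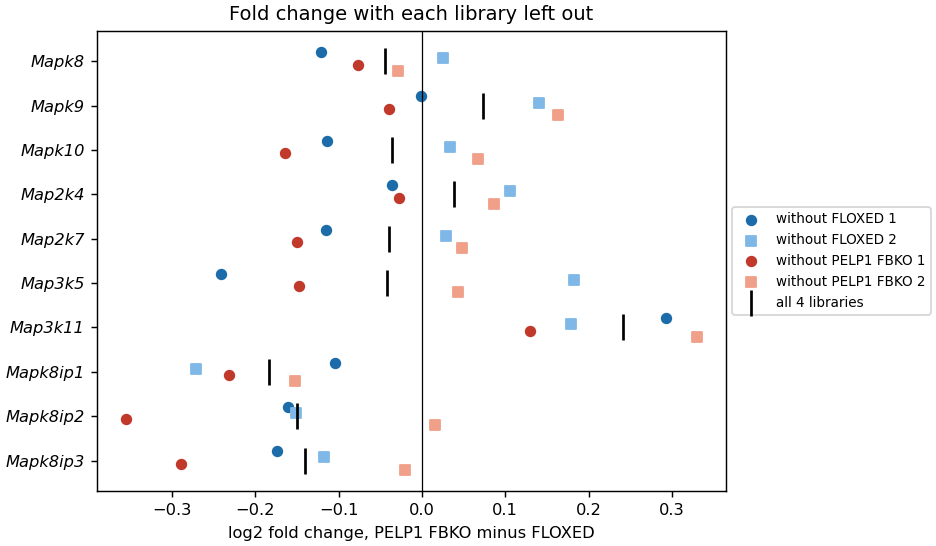
Log2 fold change (PELP1 FBKO minus FLOXED) of each member with 1 library left out (colored points) and with all 4 libraries (black bars). Map3k11 stays right of 0 and Mapk8ip1 and Mapk8ip3 stay left of 0 in all 4 cases, and the other 7 genes cross 0.

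The wider pathway was read from lists of further components. Of 22 other upstream kinases (MAP3K and MAP4K), 0 passed the adjusted threshold. At an edgeR unadjusted p under 0.05 were 2 higher and 0 lower ones (10.1% and 5.55% of all tested genes). The median log2 fold change was 0.10, beside 0.00 over all tested genes. For this and the lists below, the median of tested genes at or above the lowest member's mean level was -0.04. Some listed genes, such as Map3k1, lie below that level, so this set is not matched to the lists in level. Map3k1, which encodes MEKK1, was at 7.87 and 6.78 CPM in FLOXED against 11.2 and 14.1 CPM in PELP1 FBKO. Both knockout libraries were higher, with a log2 fold change of 0.79 (SE 0.205, edgeR adjusted p = 0.137). Map4k5 had the smallest p on the negative side, with -0.25 (SE 0.127, edgeR adjusted p = 0.386).

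Among 12 other adaptors and scaffolds, 0 passed the adjusted threshold, and the median was -0.07. At an edgeR unadjusted p under 0.05 were 3 lower and 0 higher ones (5.55% and 10.1% of all tested genes). Flna, the gene of the actin crosslinker filamin A, was at 138 and 145 CPM in FLOXED against 82.4 and 117 CPM in PELP1 FBKO. The log2 fold change was -0.50 (SE 0.177, edgeR adjusted p = 0.235). Spag9, which encodes the scaffold JIP4, had the smallest p on the positive side, at 238 and 299 CPM in FLOXED against 356 and 323 CPM in PELP1 FBKO. Its log2 fold change was 0.34 (SE 0.159, edgeR adjusted p = 0.357), opposite in sign to those of the JIP1, JIP2 and JIP3 genes.

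Of 20 JNK substrates and target genes 19 were tested. Of these 0 passed the adjusted threshold, with a median of -0.08. At an edgeR unadjusted p under 0.05 were 3 higher ones and 1 lower one (10.1% and 5.55% of all tested genes). The higher ones were Bmf, Bcl2 and Dcx, and the lower one was Jun. Jun, which encodes the substrate that gave the kinase its name, was at 200 and 183 CPM in FLOXED against 141 and 158 CPM in PELP1 FBKO. Both knockout libraries were lower, with a log2 fold change of -0.36 (SE 0.135, edgeR adjusted p = 0.262). Bmf, a pro-apoptotic BCL2 family gene whose protein JNK can phosphorylate, had 30, 46, 103 and 112 reads in FLOXED 1, FLOXED 2, PELP1 FBKO 1 and PELP1 FBKO 2. Its log2 fold change was 1.40 (SE 0.276) with an edgeR adjusted p of 0.0851. DESeq2 put it past the threshold (adjusted p = 0.0446), and other settings of the test gave adjusted p-values between 0.00646 and 0.306. Fasl was the gene not tested, with 1, 3, 0 and 0 reads.

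Of the 14 genes that restrain JNK, 0 passed the adjusted threshold, with a median of -0.10. At an edgeR unadjusted p under 0.05 were 1 lower and 0 higher ones (5.55% and 10.1% of all tested genes). Txn1, the thioredoxin gene whose product binds ASK1, was at 95.2 and 70.8 CPM in FLOXED against 53.8 and 66.7 CPM in PELP1 FBKO. The log2 fold change was -0.46 (SE 0.18, edgeR adjusted p = 0.271). Gstm1, which encodes a glutathione transferase that can also bind ASK1, had 0.26 (SE 0.144, edgeR adjusted p = 0.432). Its counts are uncertain where reads fall in close relatives of the same gene cluster.

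In the parallel p38 and ERK branches, 0 of 15 kinase genes passed the adjusted threshold, with a median of -0.09. At an edgeR unadjusted p under 0.05 were 4 lower and 0 higher ones (5.55% and 10.1% of all tested genes). Mapk11, which encodes p38β, was at 35.8 and 34.2 CPM in FLOXED against 21.7 and 19.3 CPM in PELP1 FBKO. The genotypes were well apart, with a log2 fold change of -0.77 (SE 0.149) and an edgeR adjusted p of 0.0819. DESeq2 put Mapk11 past the threshold (adjusted p = 0.00696), and the other settings gave values up to 0.266. Mapk13, on the positive side, had 3 to 15 reads a library and a log2 fold change of 0.75 (SE 0.616, edgeR adjusted p = 0.593). The difference between Mapk11 and the JNK genes was not tested.

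**Figure D5:**
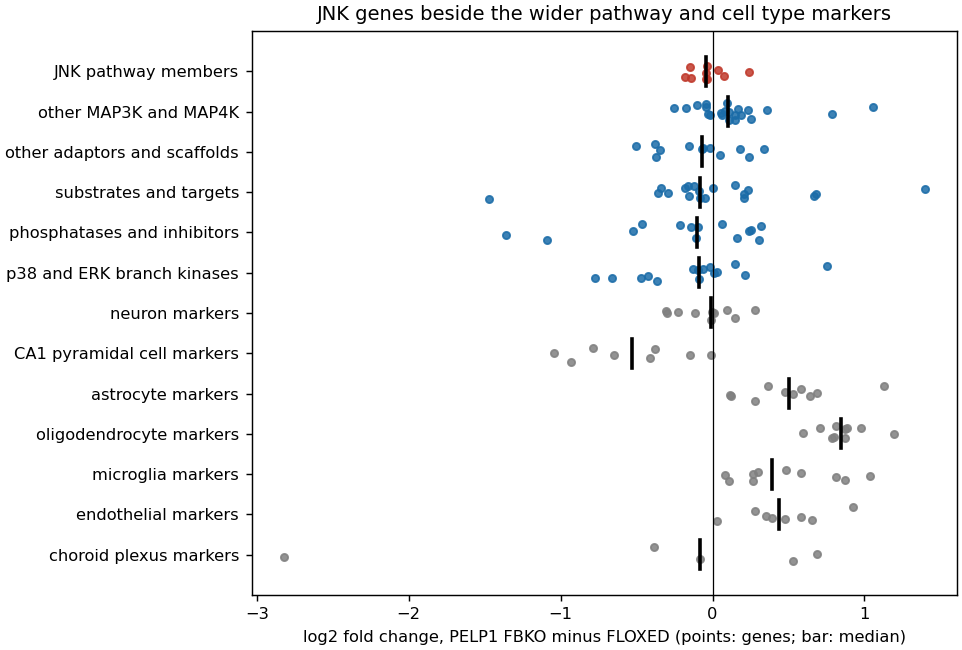
Log2 fold change (PELP1 FBKO minus FLOXED) of single genes (points) and the median of each list (black bars), for the 10 JNK pathway genes (red), 5 lists of other pathway genes (blue) and 7 lists of cell type markers (gray). The red points lie between -0.18 and 0.24, while the median is 0.84 for oligodendrocyte markers, 0.50 for astrocyte markers and -0.53 for CA1 markers.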

How the data were processed

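RNA from 4 hippocampus libraries was sequenced as 50-base single reads. The authors deposited raw read counts per gene symbol, 1 file a library, made with CASAVA 1.8.2, TopHat2 2.0.8b and HTSeq on mm9, per the submitters' processing notes. The series text names a human build, but the symbols are those of mouse. HTSeq's version, strand setting and annotation are not given in the sources used here. Per the same text, sequencing was run in duplicate and reads were combined. No source says that the replicates are different animals. The p-values are therefore relative to the spread of the sequenced samples, which may be technical.

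Summary lines that name no gene were left out of the library sizes. Of uniquely placed reads, between 14.7% and 15.7% lay in no gene, and between 38.5% and 47.7% of all alignments were not unique and not counted. Counts were tested with edgeR 4.0.16 in R 4.3.3 (TMM, filterByExpr, quasi-likelihood F test, no further terms), with Benjamini-Hochberg adjustment over 14978 genes and a threshold of 0.05. The fit was tested on simulated counts with known changes. Those changes were larger than any of the members', so this says nothing about detecting changes of the members' size. SEs come from the F statistic, and 95% intervals from its degrees of freedom. Alternatives were other size factors, other count filters, DESeq2 1.42.0, limma-voom (limma 3.58.1), a replicate block, each library left out, and offsets for transcript length and GC content from GENCODE vM21, which covered 98.9% of tested genes.

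The members, pathway lists and marker lists were chosen with earlier results of these data known. Named beside the 10 members are Pelp1 and, of each pathway list, the gene with the smallest p on each side. Zak and Map2 of the lists were matched through RefSeq synonyms. Coordinates and promoter sequences are from RefSeq on GRCm38.p6, a newer build than mm9, and no read position was taken from it.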

Additional observations from a re-analysis of the deposited data

How the results depend on the processing

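The count of members past the threshold was 0 under each of 13 alternatives, 1 of them added after seeing the data. With length and GC offsets 1 member had an unadjusted p under 0.05, and the smallest adjusted p of a member over all alternatives was 0.231 (Mapk8ip3). Over all genes edgeR called 0, and limma-voom 0. Calls came to 17 with RLE and 42 with upper-quartile size factors, 359 with all genes that had a read, 43 with at least 50 reads in every library, 449 with DESeq2, and 267 after length and GC offsets. Leaving out 1 library gave 0 (FLOXED 1), 533 (FLOXED 2), 561 (PELP1 FBKO 1) and 598 (PELP1 FBKO 2). The cause was not tested. A replicate block gave 566 calls and 0 members. The labels do not say that the numbers pair the samples, and deviations of same-numbered libraries correlated at -0.118 across genes. A block with crossed numbers, the alternative added, gave 314. Of 120 alternative log2 fold changes of members, 108 kept their sign and 12 did not, all on leaving out 1 library. With 1 library left out the range was -0.12 to 0.025 for Mapk8, -0.040 to 0.16 for Mapk9, -0.16 to 0.067 for Mapk10, -0.035 to 0.11 for Map2k4, -0.15 to 0.048 for Map2k7, -0.24 to 0.18 for Map3k5 and -0.36 to 0.016 for Mapk8ip2. Map3k1 passed the threshold without PELP1 FBKO 1 (edgeR adjusted p = 0.0293). Bmf and Mapk11 passed it with all genes that had a read (edgeR adjusted p = 0.0294 and 0.0303) and with the block (0.015 and 0.0247). The members had at least 431 reads a library.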

Other observations

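Among the target and inhibitor genes, 3 stress-induced genes differed between libraries of 1 genotype far more than the JNK pathway genes did. They were chosen after their values were seen. Atf3, a transcription factor gene induced by stress and JNK, was at 73.9 and 23.5 CPM in FLOXED against 3.72 and 31.5 CPM in PELP1 FBKO. Its log2 fold change was -1.47 (SE 0.813, edgeR adjusted p = 0.428), and the genotypes overlapped. The inducible heat shock protein 70 gene Hspa1b was at 132 and 60.3 CPM in FLOXED against 8.43 and 66.8 CPM in PELP1 FBKO. Hspa1a, a near-identical copy whose reads cannot be fully told apart from it, was at 79.0 and 27.6 CPM in FLOXED against 7.07 and 43.0 CPM in PELP1 FBKO. FLOXED 1 was the highest and PELP1 FBKO 1 the lowest library for all 3 genes. The 10 JNK pathway genes differed by no more than 0.435 on the log2 scale between libraries of 1 genotype.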
